A study of Mus musculus with 1627 samples.

Results

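The 5 genes Zfp36, Zfp36l1, Zfp36l2, Btg1 and Btg2, which act on mRNA turnover, were followed in single regulatory T cells (Tregs) from the spleen and the injured muscle of mice. They were taken by name from the 23725 genes with a row of counts. Per the labels, all cells came from male B6 Foxp3-Ires-Gfp mice, 8 months old, 4 days after injury of muscle with cardiotoxin, a toxin that kills muscle fibres. The reporter places GFP under control of the Treg factor Foxp3, and cells were sorted as DAPI-negative, TCRb+, CD4+ and GFP+ before encapsulation for inDrops, which counts 3′ ends of transcripts by unique molecular identifiers (UMIs). The 1627 cells formed 1 spleen library and 2 muscle libraries, called muscle library 1 and muscle library 2. The spleen belonged to injured mice too, so every group carries the reporter allele and the injury.

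Zfp36 (tristetraprolin), Zfp36l1 and Zfp36l2 are RNA-binding proteins with a pair of CCCH zinc fingers. They bind AU-rich elements in the 3′ UTRs of short-lived mRNAs, cytokine mRNAs among them, and recruit the CCR4-NOT complex, which shortens the poly(A) tail. Btg1 and Btg2 bind no such element themselves. They link the catalytic deadenylase subunits of CCR4-NOT to poly(A)-binding protein and are known in T cells for keeping resting cells quiescent. Zfp36 and Btg2 are also known as genes induced early after stimulation, whereas Btg1 and Zfp36l2 are known for high levels in resting lymphocytes.

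The first sequences are stretches of 30 bases from the members' own 3′ UTRs in GENCODE M21 (GRCm38), shown because the Zfp36 family binds such elements. Capitals mark TTATTTATT, the nonamer the family prefers, or, where it was missing, its core TATTTAT. They were searched on the mRNA strand of the longest coding transcript.
Zfp36, chr7:28376950-28376979, minus strand: tatgacgactTTATTTATTgtattaagatt
Zfp36l1, chr12:80108166-80108195, minus strand: aactgttggaTTATTTATTttagaaattct
Zfp36l2, chr17:84184913-84184942, minus strand: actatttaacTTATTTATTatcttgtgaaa
Btg2, chr1:134077248-134077277, minus strand: aaatgaagagcTATTTATacatgttttttt
Each mRNA of the Zfp36 family thus held the element that its own protein family binds. The 3′ UTRs of Zfp36, Zfp36l1 (1835 bases) and Zfp36l2 (1822 bases) held 3 copies of the core each, of which 1 lay in a full nonamer, and that of Zfp36 is the shortest of the 5 members. Among coding genes with a 3′ UTR of like length, 1.17% of 2639 had as many copies as Zfp36, 4.15% of 3058 as many as Zfp36l1 and 4.12% of 3055 as many as Zfp36l2. The Btg2 3′ UTR (2199 bases) held 1 copy, which 43.6% of 2911 UTRs of like length also did or exceeded. The Btg1 3′ UTR (4166 bases) held none, whereas 60.99% of 1543 UTRs of like length held at least 1.

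The second set comes from RefSeq's promoter windows on GRCm38.p6, which run from 250 bases before to 50 after a transcription start and were found for 4 of the 5 members, all but Zfp36l2. They are shown because of patterns described further on. Zfp36 and, more weakly, Zfp36l1 and Btg2 went over cells with immediate early genes, and Btg1 was highest in resting-like spleen cells. Whether the motifs bear on these patterns was not tested. Capitals mark matches on either strand to 6 motifs, chosen after the sequences had been seen: the cAMP response element TGACGTCA, the AP-1 site TGANTCA, the EGR site GCGNGGGCG, the FOXO site TGTTTAC, the CArG box and the NF-kB site.
Zfp36, EGR site, chr7:28379314-28379343, minus strand: gagctacgccGCGGGGGCGcgtcccggaag
Zfp36, CArG box, chr7:28379267-28379296, minus strand: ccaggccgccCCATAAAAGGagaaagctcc
Zfp36l1, AP-1 site, chr12:80113124-80113153, minus strand: gaccgcatggcTGATTCAacctcagtgtca
Btg1, FOXO site, chr10:96616751-96617000, plus strand: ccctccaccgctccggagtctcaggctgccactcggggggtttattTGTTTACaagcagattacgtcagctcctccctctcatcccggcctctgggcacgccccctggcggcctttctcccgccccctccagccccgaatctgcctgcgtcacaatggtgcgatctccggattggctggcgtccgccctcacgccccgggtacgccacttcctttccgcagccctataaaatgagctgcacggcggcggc
Btg2, cAMP response element and EGR site, chr1:134079156-134079405, minus strand: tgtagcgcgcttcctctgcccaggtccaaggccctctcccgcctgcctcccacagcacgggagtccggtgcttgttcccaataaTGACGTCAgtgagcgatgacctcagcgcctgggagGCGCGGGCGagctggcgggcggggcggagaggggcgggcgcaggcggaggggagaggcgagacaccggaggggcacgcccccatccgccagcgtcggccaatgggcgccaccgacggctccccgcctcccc
Among all 32851 such windows of 300 bases, 1.79% held the cAMP response element, 7.81% the AP-1 site, 5.55% the EGR site, 3.65% the FOXO site, 1.63% the CArG box and 5.81% the NF-kB site, which none of the 4 windows held. In Zfp36 the CArG box, the site of serum response factor, began 58 bases before the start, and the EGR site lay upstream of it. In Btg2 the cAMP response element lay upstream of the EGR site. A match of letters is a description of the sequence and no measure of binding.

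Zfp36 lies at chr7:28376784-28380253, Zfp36l1 at chr12:80107754-80113013, Zfp36l2 at chr17:84183931-84187947 and Btg2 at chr1:134075170-134079120, all on the minus strand, and Btg1 lies at chr10:96617006-96622809 on the plus strand. In the last 500 bases of their longest coding transcripts, where 3′ counting draws its reads, no member shared a run of 31 bases with a transcript of another gene. The Btg1 pseudogene Btg1-ps2 has a row of its own in the count table. Exon sequence of the antisense gene Gm26669 covers 1490 of the 1835 bases of the Zfp36l1 3′ UTR. Because the strand setting of the counting is not given in the sources used here, reads of the pair cannot be told apart. The same holds for Zfp36 with Gm44710 and Zfp36l2 with AC132455.1, whose exons overlap exons of the members outside the 3′ UTRs. None of the 3 antisense genes has a row of its own.

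Summed UMIs came to 982570 for spleen, then 1533277 and 1916496 for muscle libraries 1 and 2, with medians of 3541, 1976 and 2487.5 UMIs per cell. Ribosomal protein genes took 22.3% of the spleen UMIs and 13.4% and 13.8% of those from muscle. The muscle libraries shared 11 cell barcodes with each other, muscle library 1 shared 1 with spleen, muscle library 2 shared none with spleen, and no pair of shared barcodes held identical counts. None of the 10 T cell identity genes, Foxp3 and Cd4 among them, passed the call rule given next in either direction. The 41 markers with a row for other cell types stayed low in sum: B cell markers at 12.5 to 13.7 CPM (counts per 1000000), myeloid markers at 16.96 to 33.59 CPM, CD8 and NK markers at 76.3 to 95.7 CPM, muscle fibre markers at 28.5 to 45.9 CPM, fibroblast markers at 0.65 to 4.07 CPM, endothelial markers at 59.5 to 116.02 CPM and erythroid markers at 16.3 to 37.6 CPM, with none called. Ms4a1, Ebf1, Adgre1, S100a8, Myh4, Pdgfra, Lum, Cdh5 and Kdr had no UMI in any library.

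Levels are CPM of a library's summed UMIs, with exact Poisson 95% intervals, and folds carry exact conditional binomial 95% intervals. Both cover counting error only. The labels name no animal and the spleen is a single library, so no test between tissues was made. The call rule took genes whose UMIs summed to 50 or more and required a difference of 2-fold or more from spleen, on the same side, in each muscle library. All 5 members passed the UMI minimum. By this rule 1 member, Zfp36, was called higher, where 7.47% of the 7617 genes tested were, and 0 members were called lower, where 3.45% were. At a 1.5-fold threshold Zfp36l2 and Btg1 were called lower as well, 2 of 5 members where 10.8% of all genes were.

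Zfp36, the family's founding member, stood at 319.6 CPM (285.2 to 356.9) in spleen, 864.2 CPM (818.3 to 911.98) in muscle library 1 and 819.2 CPM (779.2 to 860.8) in muscle library 2. Both muscle libraries lay far above spleen, and they did not differ from each other beyond counting error. The fold over spleen was 2.70 (2.39 to 3.07) in muscle library 1 and 2.56 (2.27 to 2.90) in muscle library 2, at percentiles 95.1 and 93.9 of the 7617 genes. In a sum over cells, fewer cells with a transcript and fewer transcripts per cell cannot be told apart. The counts per cell, given below, bear on this.

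Zfp36l1, which shares its targets with Zfp36 in part, was measured at 1069 CPM in spleen, 1224 CPM in muscle library 1 and 898.5 CPM in muscle library 2. Spleen lay between the muscle libraries, at folds of 1.14 (1.06 to 1.24) and 0.84 (0.78 to 0.91), so no common direction was seen. The muscle libraries themselves differed 1.36-fold (1.27 to 1.45), more than either differed from spleen. Zfp36l1 had the most UMIs of the Zfp36 family in each library.

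Zfp36l2 is known for its part in lymphocyte development and, in memory T cells, for restraining translation of cytokine mRNAs. Its level was 925.1 CPM in spleen, 521.1 CPM in muscle library 1 and 456.6 CPM in muscle library 2. Spleen was the highest, and the muscle libraries lay 1.78-fold (1.61 to 1.95) and 2.03-fold (1.84 to 2.23) below it. The difference in muscle library 2 alone passed the 2-fold threshold. Its fold ranked at percentiles 10.4 and 6.66 of all genes.

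Btg1 had the highest CPM of the 5 members in spleen, 1525, against 998.5 and 896.9 in muscle libraries 1 and 2. The muscle libraries lay 1.53-fold (1.42 to 1.64) and 1.70-fold (1.58 to 1.82) below spleen. Btg2 stood at 482.4 CPM in spleen, 321.5 CPM in muscle library 1 and 380.4 CPM in muscle library 2, folds of 0.67 (0.59 to 0.76) and 0.79 (0.70 to 0.89) over spleen. All 3 libraries differed for Btg2 beyond counting error, in the order spleen, muscle library 2, muscle library 1.

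**Figure D1:**
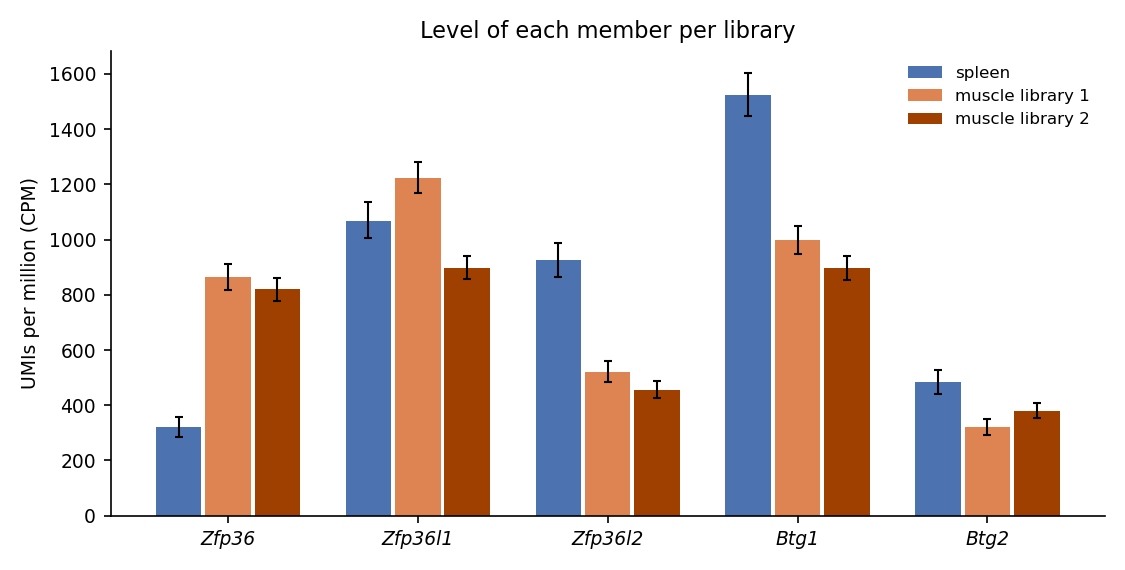
Bars give the level of each of the 5 members in CPM in the spleen library and both muscle libraries, with exact Poisson 95% intervals that cover counting error only. Zfp36 is higher in both muscle libraries (864.2 and 819.2 CPM) than in spleen (319.6 CPM), while Zfp36l2, Btg1 and Btg2 are highest in spleen.

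The 3 Zfp36 family genes summed to 2313 CPM in spleen and to 2609 and 2174 CPM in muscle libraries 1 and 2. Because each UMI marks the 3′ end of a molecule, whatever its length, the shares of the members in this sum can be set side by side. Zfp36 made up 13.8% (12.4 to 15.3, exact binomial 95% interval) of the family's UMIs in spleen, 33.1% (31.7 to 34.6) in muscle library 1 and 37.7% (36.2 to 39.2) in muscle library 2. Zfp36l2 made up 39.99% (37.97 to 42.04), 19.98% (18.75 to 21.25) and 20.998% (19.77 to 22.27) in the same order. Zfp36l1 held 46.2%, 46.9% and 41.3%. Spleen thus had Zfp36l2 as the second member by UMIs and Zfp36 as the last, and both muscle libraries had the reverse. The sum of Btg1 and Btg2 was 2007 CPM in spleen and 1320.1 and 1277 CPM in the muscle libraries, with Btg1 at 75.96%, 75.64% and 70.22% of it.

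To compare cells of unequal depth, each cell was thinned at random to 1000 UMIs, which left out 33 shallower cells: 26 from muscle library 1, 7 from muscle library 2 and 0 from spleen. Zfp36 was then seen in 17.4% (12.96 to 22.55) of spleen cells, 40.1% (36.32 to 44.01) in muscle library 1 and 37.4% (33.78 to 41.15) in muscle library 2. Unthinned, these shares were 33.98%, 55.04% and 53.03%. Among the thinned cells with Zfp36 the mean was 1.93 UMIs in spleen, on 45 cells, against 2.30 and 2.52 in muscle libraries 1 and 2. Unthinned, in cells of unequal depth, it was 3.57, 3.57 and 4.27 UMIs in the same order. The share of cells was thus higher in muscle, while the means carry no interval and their difference was not tested. Cells with 3 or more UMIs of Zfp36 were 3.86% of spleen, 13.7% of muscle library 1 and 12.2% of muscle library 2.

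Zfp36l2 was seen in 41.3% (35.3 to 47.6) of thinned spleen cells, 31.3% (27.8 to 35.1) in muscle library 1 and 27.7% (24.3 to 31.2) in muscle library 2, against 58.3%, 42.9% and 39.3% unthinned. Its mean in the thinned cells that had it was 2.43, 1.89 and 2.01 UMIs. For Btg1, the member seen in the most cells, the shares were 64.5% (58.3 to 70.3), 59.3% (55.4 to 63.1) and 52.7% (48.9 to 56.5), against 85.7%, 77.2% and 72.8% unthinned. The libraries differed in the cells with many Btg1 UMIs: 26.3% of spleen cells held 3 or more after thinning, 14.97% in muscle library 1 and 11.35% in muscle library 2.

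Zfp36l1 was seen in 46.3%, 53.5% and 41.8% of thinned cells and in 69.9%, 66.8% and 55.9% unthinned, in the order spleen, muscle library 1, muscle library 2. Btg2 was seen in 25.87% (20.65 to 31.65), 22.99% (19.81 to 26.43) and 24.16% (21.01 to 27.54) of thinned cells, shares whose intervals overlap, and in 45.9%, 35.6% and 38.5% unthinned. The 41 marker genes with a row for cell types that the sort should lack had a median share of 0% after thinning. The highest of them were Pecam1 in spleen (8.11%), Pecam1 in muscle library 1 (4.17%) and Cd8b1 in muscle library 2 (6.26%), each under the share of every member in that library.

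**Figure D2:**
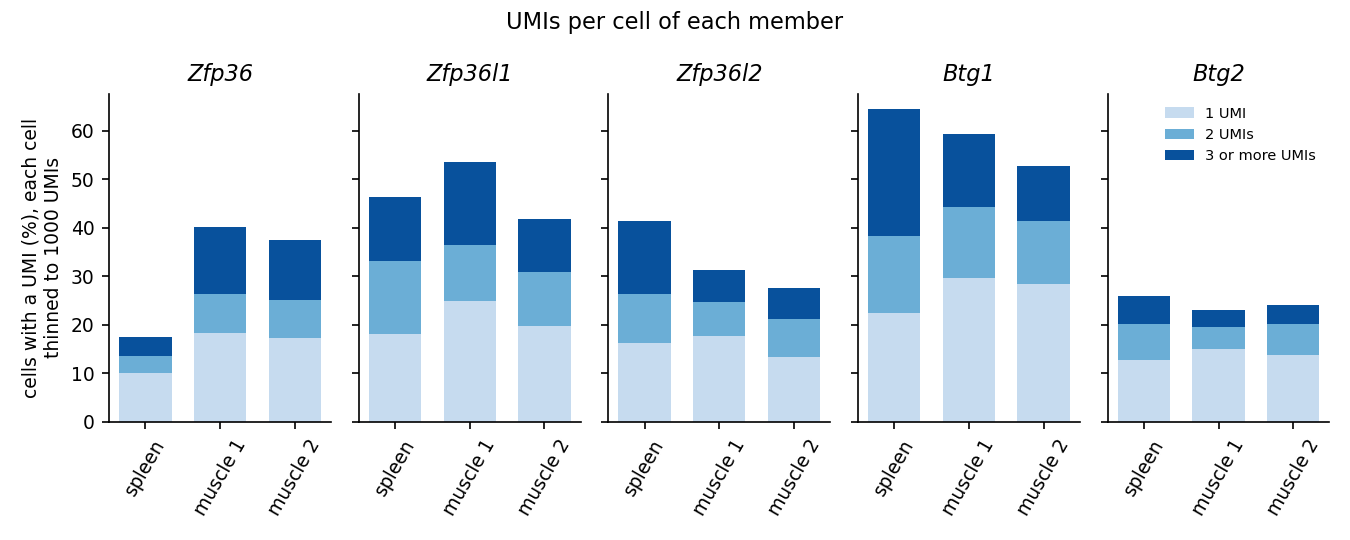
Stacked bars give the percentage of cells with 1, 2 and 3 or more UMIs of each member, per library, after each cell was thinned to 1000 UMIs. The Zfp36 bars reach 17.4% in spleen and 40.1% and 37.4% in muscle, the Btg1 bars 64.5% in spleen and 59.3% and 52.7% in muscle.

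Cells that showed a given family member without another were counted too. Such shares depend on the shares of the single genes above, and a link beyond those was not tested. After thinning, 35.1% (29.3 to 41.3) of spleen cells had Zfp36l2 without Zfp36, against 17.4% (14.6 to 20.6) and 16.4% (13.8 to 19.4) of the muscle libraries. The opposite, Zfp36 without Zfp36l2, was seen in 11.2% (7.63 to 15.7) of spleen cells and in 26.2% (22.9 to 29.8) and 26.2% (22.9 to 29.7) of muscle cells. At least 1 of the 3 was seen in 74.9% of spleen cells, 78.7% in muscle library 1 and 71.9% in muscle library 2. None of the 5 members was seen in 8.49%, 7.87% and 10.8% of cells. At 1000 UMIs a cell without a UMI may still hold the transcript.

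Cells were then grouped by clustering that left out the 5 members, so their levels did not shape the groups. Of the 7 clusters, 1 was resting-like by markers such as Tcf7, Ccr7 and Bach2 among its leading genes, and it held 73.7% of the spleen cells and 2.23% (15 cells) and 2.02% (14 cells) of the muscle libraries. An unnamed cluster led by Entpd5, Slamf6 and Mmp9 (cluster 4 in the plot of clusters) was the only one with at least 20 cells of every library, 28 of them from spleen. Levels by cluster are descriptions. They are given and ranked where a cluster held at least 20 cells of a library, and the fewer resting-like cells of muscle are given apart, for all members, and enter no ranking.

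Within spleen, Zfp36l2 and Btg1 were highest in resting-like cells. Zfp36l2 stood at 1053 CPM there and at 628.1 CPM in the 68 other spleen cells, 1.68-fold (1.43 to 1.98) lower. Btg1 stood at 1712 CPM against 1091 CPM, 1.57-fold (1.39 to 1.78) lower in the others. Zfp36 showed the opposite order, 294.3 CPM in resting-like cells and 378.2 CPM in the others, a fold of 1.29 (1.01 to 1.63). Zfp36l1 (1046 and 1121 CPM) and Btg2 (490.9 and 462.6 CPM) differed by less than counting error. In the 15 and 14 resting-like cells of the muscle libraries Zfp36 stood at 1194 CPM (827.1 to 1669) and 619.98 CPM (373.3 to 968.2), above the resting-like cells of spleen, on 34 and 19 UMIs. Btg1 stood there at 1475 CPM (1063 to 1994) and 1501 CPM (1099 to 2002), intervals that hold the spleen value. Zfp36l2 was at 491.8 CPM (268.9 to 825.1) in muscle library 1, below the resting-like cells of spleen, and at 848.4 CPM (554.2 to 1243) in muscle library 2, an interval that holds their value. Zfp36l1 was above them in both, at 1756 CPM (1304 to 2315) and 1893 CPM (1437 to 2447). Btg2 was above them in muscle library 1, at 1018.7 CPM (682.2 to 1463), and not beyond counting error in muscle library 2, at 456.8 CPM (249.8 to 766.5).

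Leaving the resting-like cells out of every library brought Zfp36l2 and Btg1 closer to spleen and left Zfp36 above it. Without them the Zfp36 folds over spleen were 2.27 (1.87 to 2.78) and 2.17 (1.79 to 2.66). Zfp36 was the 1 member called higher, where 10.6% of the 7116 genes then tested were, and 0 members were called lower, where 5.45% were. The Zfp36l2 folds were 0.83 (0.71 to 0.98) and 0.72 (0.61 to 0.84). Those of Btg1 were 0.91 (0.80 to 1.03) and 0.81 (0.72 to 0.92), from 0.65 and 0.59 with all cells. Those of Btg2 hardly moved, at 0.67 (0.55 to 0.81) and 0.82 (0.68 to 0.99). Zfp36l1 stayed on both sides of spleen, at folds of 1.08 (0.96 to 1.22) and 0.79 (0.70 to 0.89).

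**Figure D3:**
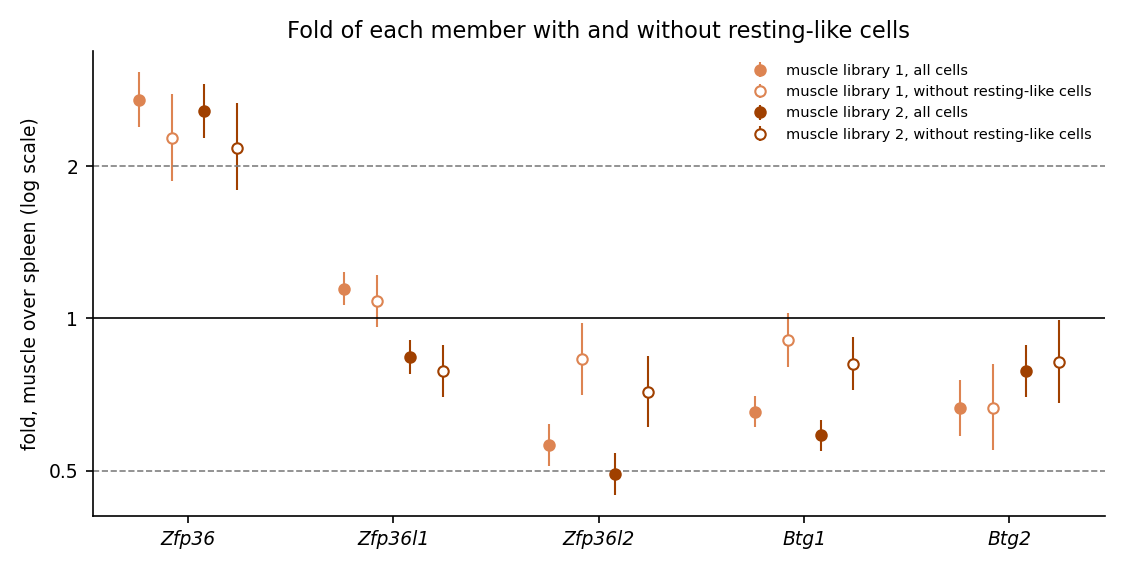
Points give the fold of each member in each muscle library over spleen on a log scale, with exact conditional binomial 95% intervals, for all cells (filled) and without the resting-like cells (open); dashed lines mark 2-fold. Zfp36 stays above 2 in both libraries without those cells (2.27 and 2.17), and Btg1 moves from 0.65 and 0.59 to 0.91 and 0.81.

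Within cluster 4, cells of all 3 libraries could be set side by side. Zfp36 stood at 380.3 CPM in the spleen cells, 713.2 CPM in muscle library 1 and 638.3 CPM in muscle library 2, folds of 1.88 (1.398 to 2.553) and 1.68 (1.252 to 2.284). Btg1 was nearly level, at 1148, 1119 and 1098 CPM, with folds of 0.97 (0.81 to 1.17) and 0.96 (0.80 to 1.15). Btg2 was highest in the spleen cells, at 658.7 CPM, while muscle had 359.5 and 397.02 CPM, 1.83-fold (1.39 to 2.41) and 1.66-fold (1.27 to 2.15) lower in muscle. Zfp36l2 stood at 706.2, 569.4 and 510.1 CPM, of which the muscle library 2 value alone differed from spleen beyond counting error (1.38-fold lower, 1.08 to 1.76). These folds depended on how finely the cells were clustered. At Leiden resolution 1.2 the cluster that held 18 of the 28 spleen cells had Zfp36 folds of 3.43 (2.33 to 5.17) and 2.91 (1.99 to 4.37). At resolution 0.5 the cluster that held 21 of them had folds of 2.30 (1.70 to 3.17) and 1.76 (1.30 to 2.43), while another, with 5 of them, had folds of 1.26 (0.96 to 1.69) and 1.08 (0.82 to 1.45), whose intervals hold 1. Btg1 in that last cluster was lower in muscle, at 0.77 (0.63 to 0.95) and 0.72 (0.59 to 0.89). Btg2 there was at 0.76 (0.52 to 1.15) and 0.75 (0.51 to 1.13), intervals that hold 1, and at resolution 1.2 it was at 0.92 (0.66 to 1.29) in muscle library 2. Zfp36l2 at resolution 1.2 was lower in both muscle libraries, at 0.61 (0.44 to 0.84) and 0.54 (0.39 to 0.73). At resolution 0.5 it was at 0.65 (0.52 to 0.82) and 0.69 (0.56 to 0.86) in the cluster with 21 of the 28 spleen cells. The cluster with 5 of them had Zfp36l2 at 0.85 (0.63 to 1.17) and 0.68 (0.50 to 0.94). Zfp36l1 in cluster 4 was at 0.95 (0.79 to 1.17) and 0.81 (0.67 to 0.99). In muscle library 1 it was at 1.31 (1.03 to 1.68) at resolution 1.2 and at 1.28 (1.05 to 1.57) in the resolution 0.5 cluster with 21 of the 28. Its intervals in muscle library 2 held 1 in both, as did both of its intervals in the cluster with 5. Only 28 spleen cells stand behind the values of cluster 4, and their median of 5380.5 UMIs was above that of the muscle cells (1939 and 2566).

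Among muscle clusters of at least 20 cells, Zfp36 was lowest in an unnamed cluster with Ccnb2, Stmn1 and Cdca7 among its leading genes (cluster 0), at 475.98 and 442.3 CPM in the muscle libraries. It was highest in the immediate early-high cluster, with Egr1, Fosb and Fos among its leading genes, at 1482 and 1506 CPM, or 3.11 and 3.405 times as high. The lowest place was less settled. In muscle library 2 cluster 0 was within counting error of cluster 2, at 445.9 CPM (366.1 to 537.9). At resolution 1.2 the cluster with Ccnb2, Stmn1 and Cdca7 had Zfp36 at 507.2 and 473.6 CPM. Other clusters were the lowest there, at 499.5 CPM in muscle library 1 and 372.2 CPM in muscle library 2. Every muscle cluster with at least 20 cells had more Zfp36 than the resting-like spleen cells (294.3 CPM). Zfp36l1 was highest in the tissue effector-like cluster, with Tff1, Cd83 and Penk among its leading genes, at 1840 CPM (1657 to 2037) in muscle library 1 and 1405 CPM (1274 to 1546) in muscle library 2. At resolution 1.2 the name went to another cluster, with Gzmb and Klrg1 among its leading genes, where Zfp36l1 stood at 1425 and 1180 CPM and was not the highest in either library. An unnamed cluster with Cd83 and Penk among its leading genes had Zfp36l1 at 1639 and 1465 CPM at that resolution. The highest levels of the muscle libraries there were 1639 and 1528 CPM, in other clusters. At resolution 0.8, in muscle library 2 the lowest Zfp36l1 level was 564.5 CPM, in cluster 2, where muscle library 1 had 1263 CPM, so the difference between the muscle libraries was not even over clusters.

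Cluster 0 also had the lowest Btg1 and Btg2 of these muscle clusters. Btg1 stood there at 536.3 and 543.8 CPM, against 1183 CPM in the tissue effector-like cluster of muscle library 1 and 1098 CPM in cluster 4 of muscle library 2, the highest values among muscle clusters of at least 20 cells. Btg2 stood at 127.4 CPM (90.1 to 174.8) and 134.1 CPM (94.4 to 184.9), and it reached 650.7 CPM (571.7 to 737.5) in the immediate early-high cluster of muscle library 2 but 376.5 CPM (303.9 to 461.2) in that of muscle library 1. Zfp36l2 ranged from 387.8 to 894.6 CPM in muscle library 1 and from 246.5 to 525.8 CPM in muscle library 2, highest in the immediate early-high cluster in both among clusters of at least 20 cells. In muscle library 2 this was within counting error of cluster 4, at 510.1 CPM (442.3 to 585.3). There the immediate early-high cluster was not the highest at resolution 0.5 (499.9 CPM against 548.1 CPM) or 1.2 (575.4 CPM against 716.7 CPM). Cluster 0 had the deepest muscle cells, with medians of 3709 and 4269 UMIs, and the part of depth in its low values was not tested.

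**Figure D4:**
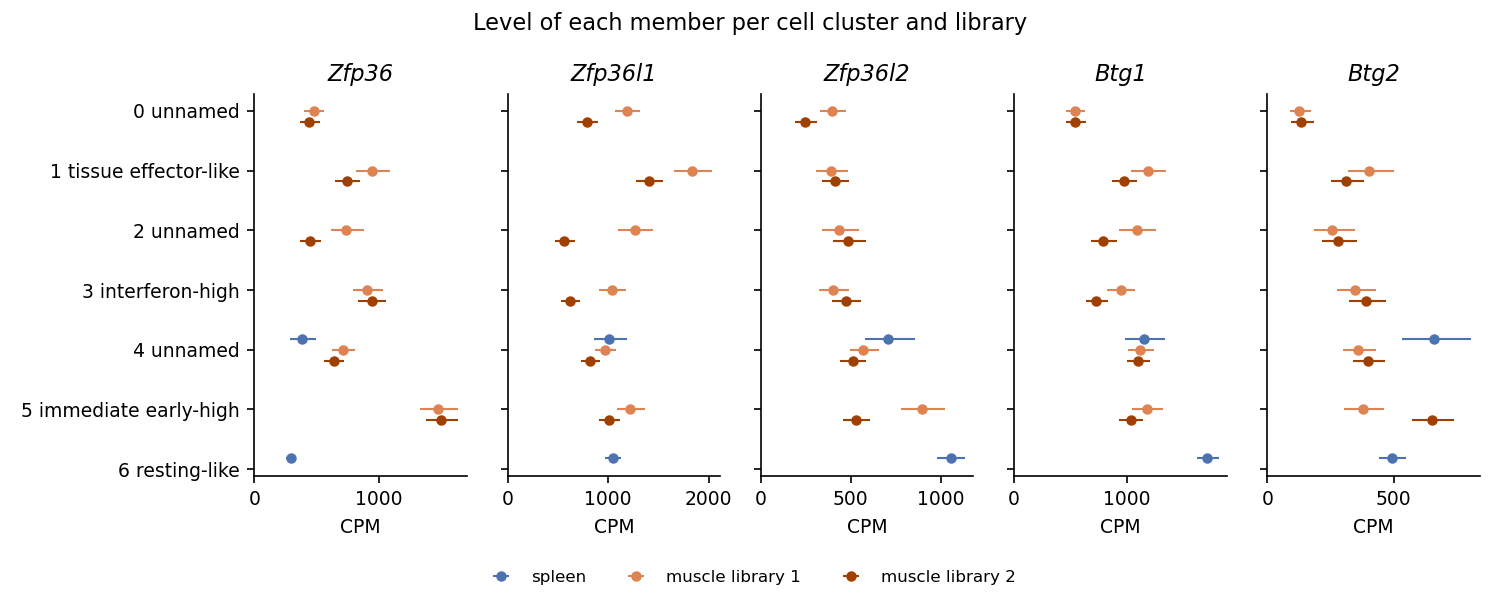
Points give the level (CPM) of each member in each of the 7 clusters, per library and with exact Poisson 95% intervals, where at least 20 cells of the library fell in the cluster. Zfp36 is highest in the immediate early-high cluster (1482 and 1506 CPM), Btg1 and Zfp36l2 in the resting-like spleen cells (1712 and 1053 CPM), and Btg2 is lowest in cluster 0.

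Likeness over cells was measured as Pearson's r of log counts within each library, averaged over the 3 libraries, over 3588 genes. The cells share library and depth, and every value was low, so these are descriptions of sparse counts. The genes most like Zfp36 were the immediate early factors Egr1 (mean r 0.22) and Fos (0.21) and the NF-kB inhibitor Nfkbia (0.21). For Egr1 and Fos this rested on muscle (Egr1 at 0.06 in spleen, 0.30 and 0.29 in muscle), whereas Nfkbia was at 0.25 in spleen, 0.21 and 0.17 in muscle. Zfp36l1 went most with the activation marker Cd83 (0.18), Nfkbia (0.18) and the receptor-induced factor Nr4a1 (0.17), a gene of the immediate early list below. Btg2 went most with Junb (0.15), Zfp36 (0.14) and Ier2 (0.13). In muscle library 1 these were at 0.08, 0.09 and 0.04, against 0.14, 0.20 and 0.18 in spleen and 0.22, 0.14 and 0.17 in muscle library 2. The chemokine receptor Cxcr4 was the gene most like both Btg1 (0.18) and Zfp36l2 (0.12). The other genes nearest to Btg1 were Vps37b (0.17) and Cytip (0.14), and those nearest to Zfp36l2 were the decapping cofactor Pnrc1 and the transcription factor Fli1, each at 0.10. These last values were higher in spleen, with Pnrc1 at 0.21 there, 0.07 and 0.04 in muscle, and Fli1 at 0.17, 0.05 and 0.09. Among the 10 pairs of members, mean r ran from -0.02 for Zfp36l1 with Zfp36l2 to 0.14 for Zfp36 with Btg2.

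The list of 20 AP-1 and other immediate early genes, which T cells induce early after stimulation, had 18 genes with enough UMIs. Of these 3 were called higher in muscle, Fosb (8.05-fold and 7.38-fold), Jund (3.25-fold and 2.97-fold) and Nr4a1 (2.59-fold and 2.43-fold), and 2 were called lower, Egr2 (3.36-fold and 4.37-fold) and Nr4a2 (3.75-fold and 3.17-fold). The list's median log2 fold was 0.43, beside 0.05 over all 7617 genes, of which 7.47% were called higher and 3.45% lower. Junb was at 1.47-fold and 1.54-fold, Dusp1 at 1.32-fold and 1.05-fold and the stress gene Ppp1r15a at 1.65-fold and 1.88-fold lower. Fos and Egr1, the genes most like Zfp36 over cells, were not called, at 1.96-fold and 2.42-fold and at 1.73-fold and 1.53-fold. Muscle was digested with collagenase and dispase and spleen was dissociated mechanically, per the labels' protocols, so tissue and dissociation cannot be told apart for Zfp36 or for these genes.

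Of the 14 measured genes of the resting T cell state 6 were called lower in muscle and 0 higher, beside 3.45% and 7.47% of all 7617 genes. Their median log2 fold was -0.77, and 2 had a mean log2 fold above 0. Called lower were Tcf7 (15.1-fold and 49.2-fold lower), Bach2 (9.49-fold and 8.90-fold), Ccr7 (9.75-fold and 8.31-fold), Bcl2 (7.47-fold and 8.45-fold), Satb1 (3.56-fold and 4.61-fold) and S1pr1 (2.36-fold and 2.85-fold). Ets1, Il7r and Foxo1, the most abundant of the rest, were at 0.85-fold and 0.76-fold, 1.38-fold and 1.18-fold, and 0.66-fold and 0.64-fold. Slfn2, named after its values were seen as the other gene above 0 beside Il7r, was at 1.65-fold (1.29 to 2.12) and 1.57-fold (1.233 to 2.004).

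Other genes of the members' families and of the machinery they recruit are given by list. Their calls, here and below, stand beside 7.47% called higher and 3.45% called lower among all 7617 genes. Each list has few tested genes, and no count was tested against these shares. Of 5 relatives, 3 had enough UMIs and 0 were called: Tob2, a Btg relative that also binds CCR4-NOT, lay 1.21-fold and 1.29-fold below spleen, Btg3 1.08-fold and 1.29-fold, and Tob1, known for restraining T cell activation, 1.76-fold (1.28 to 2.41) and 2.99-fold (2.13 to 4.24). Zfp36l3 and Btg4 had no UMI in any library. Of the 13 measured deadenylase genes 0 were called, with a median log2 fold of 0.05. Cnot6l, a catalytic subunit, was at 1.07-fold and 1.10-fold, the scaffold Cnot1 at 1.02-fold and 1.06-fold, and Cnot2 at 0.90-fold and 1.05-fold. Among those named after their values were seen, the catalytic subunit Cnot6 lay 1.69-fold (1.21 to 2.36) and 1.69-fold (1.23 to 2.32) below spleen, and Pan3, of the other deadenylase complex, 1.67-fold (1.19 to 2.35) and 2.32-fold (1.64 to 3.30). Both pass the 1.5-fold threshold. Cnot7, a subunit that Btg proteins bind, had too few UMIs for the rule.

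Of the 11 genes of decapping and 5′ decay 0 were called, with a median of -0.09. The helicase Ddx6 lay 1.36-fold and 1.72-fold below spleen and Lsm14a stood at 199.5, 198.9 and 125.2 CPM, while Pnrc1 was at 1.08-fold and 1.02-fold. Of 11 exosome genes 2 were called higher, the subunits Exosc1 (2.27-fold and 2.52-fold) and Exosc7 (2.78-fold and 2.14-fold), at 6.11 to 28.2 CPM. Exosc7 had 6 UMIs in spleen, and its interval in muscle library 2 (0.86 to 6.37) holds 1. Exosc2, the exosome gene with the most UMIs, lay 1.82-fold and 1.13-fold below spleen.

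Among 17 other RNA-binding regulators 1 was called higher, N4bp1, a protein with an RNase domain, at 2.86-fold and 2.81-fold. Pabpc1, the poly(A)-binding protein that Btg proteins contact, stood at 1327 CPM in spleen, 813.9 and 788.9 CPM in muscle, 1.63-fold and 1.68-fold lower. Pum2, another repressor that binds 3′ UTRs, lay 1.67-fold and 2.02-fold below spleen, and Ybx1 was at 1.18-fold and 0.96-fold. Among 16 kinases, phosphatases and binding partners of the Zfp36 proteins, 1 was called higher, Mapkapk3, a kinase of the p38 pathway that acts on Zfp36, at 2.92-fold and 2.78-fold. Other kinases of that pathway, named after their values were seen, were not called. Mapkapk2 was at 1.70-fold (1.37 to 2.12) and 2.09-fold (1.70 to 2.58), while Mapk14 lay 1.85-fold (1.35 to 2.55) and 1.59-fold (1.19 to 2.13) below spleen. The 14-3-3 proteins Ywhaz and Ywhae, which bind phosphorylated Zfp36, were at 1.27-fold and 1.13-fold, and at 1.45-fold and 1.29-fold.

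**Figure D5:**
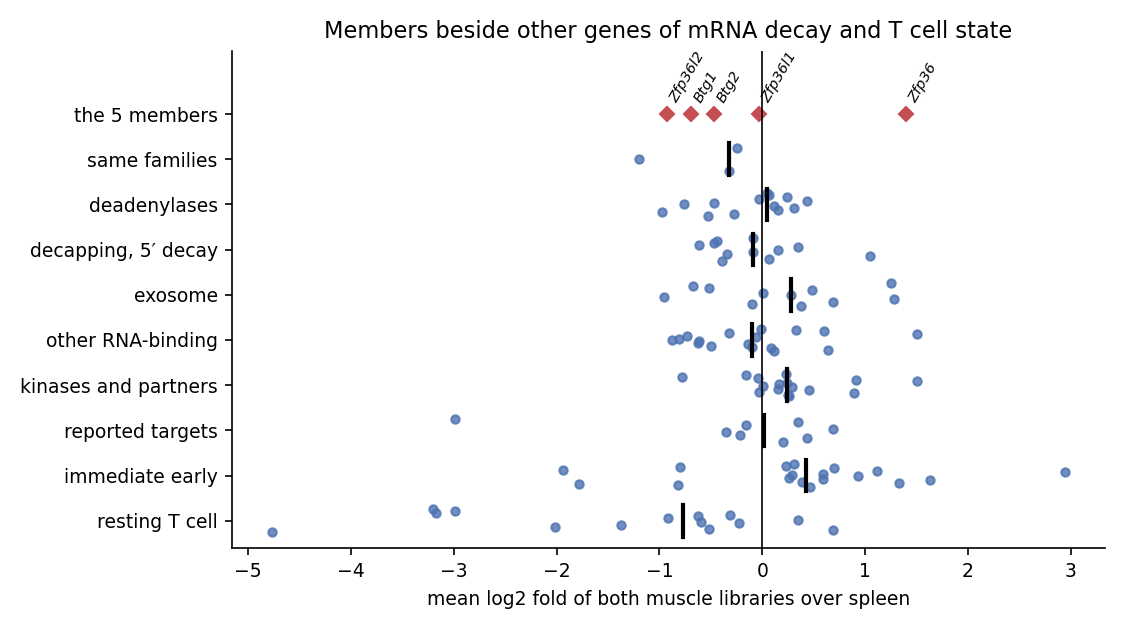
Each dot is a gene with at least 50 UMIs, placed at the mean of its log2 folds in both muscle libraries over spleen, by list; bars mark list medians and diamonds the 5 members. The immediate early list has a median of 0.43 and the resting T cell list one of -0.77, while the deadenylase list lies at 0.05.

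Of 18 mRNAs known from the literature as targets of the Zfp36 family, 8 had enough UMIs and 1 was called, Bcl2, which was lower. Bcl2 is also on the resting T cell list, so this is the call already given there. The median log2 fold of the 8 targets was 0.02. The kinase Pim1, whose 3′ UTR held 4 copies of TATTTAT, was at 1139.9 CPM in spleen and at 1.18-fold and 1.56-fold in muscle. Ikzf2, with 3 copies, was at 0.93-fold and 0.86-fold, and Il10, with 4, stood at 86.5 CPM in spleen, 148.7 and 129.9 CPM in muscle. The cytokine mRNAs Il2, Csf2 and Il6 had no UMI in any library, and Ifng and Il17a had too few for the rule.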

How the data were processed

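Single Tregs were profiled with inDrops and sequenced on a NextSeq500, per the labels' protocols. The submitters' processing notes name mm10, TopHat2 and SAMtools without versions. How UMIs were collapsed, and the annotation and cell filter, is not stated by any label or header. The authors deposited raw UMI counts of 23725 genes in 1627 cells, which the labels place in 3 libraries (259 cells of spleen, 674 and 694 cells of muscle libraries 1 and 2). No cell was removed and no doublet caller was run.

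Each library's UMIs were added up and expressed as CPM, counts per 1000000 of that sum. A library at 0 was set to a floor of 3 counts in folds. Cells and genes are no replicates, so no p-value was computed. Thinning used 1000 UMIs per cell (seed 1) and left out 33 shallower cells. Clustering (scanpy 1.11.5) used 10000 counts per cell, log1p, 1500 variable genes without the members, 20 components, 15 neighbours and Leiden resolution 0.8, with 0.5 and 1.2 as alternatives. A cluster was named if 3 of its 10 leading genes were listed markers. UTRs of like length are 0.8 to 1.25 times as long. Likeness used genes with at least 200 UMIs in all and 20 in each library. Named are the members, each list's called genes and up to 3 others with the most UMIs, and the 3 genes most like each member. Alternatives used edgeR 4.0.16 and DESeq2 1.42.0 factors. Call and interval code was tested on simulated data. Members, lists and rules were chosen with earlier results of these data known.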

Additional observations from a re-analysis of the deposited data

How the results depend on the processing

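Zfp36 was the 1 member called higher in muscle under every alternative run. The folds of a muscle library over spleen do not use the other muscle library, so leaving 1 out changes only the calls: 0 to 1 members (Zfp36l2, in muscle library 2 alone) and 6.89% to 6.96% of tested genes were then lower. At 1.5-fold 2 members were lower, with 15.9% of genes (1208) higher and 10.8% (825) lower. The share of genes called lower was 7.71% (1121 genes, with 993 higher) with no UMI minimum, 5.64% with at least 10 UMIs (987 higher) and 1.82% with at least 200 UMIs.

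Totals without ribosomal protein genes moved the median log2 fold of all genes from 0.05 to -0.10, the share called lower to 5.32% and the share of higher among called genes from 68.4% to 51.6%. The log2 folds in muscle libraries 1 and 2 were then 0.039 and -0.40 for Zfp36l1, -0.98 and -1.17 for Zfp36l2, and -0.77 and -0.92 for Btg1. Without resting-like cells 5.45% of genes were lower, and the log2 folds were 1.18 and 1.12 for Zfp36, -0.27 and -0.48 for Zfp36l2, and -0.14 and -0.30 for Btg1. After thinning, Zfp36l2 was at -0.86 in muscle library 2.

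The 10 member folds stayed within their counting intervals under TMM and DESeq2 factors. With 750 or 2000 UMIs per cell, or unthinned, 41 of 45 shares of cells left the interval of the 1000 UMI value, since a share depends on depth. Of 50 cluster levels 6 moved with the resolution, Zfp36 in the immediate early-high cluster to 1739 and 1746 CPM at resolution 1.2, and the folds within the cluster shared by all libraries moved as given with them. No paired analysis was possible because the spleen is 1 library and no test was made. A UMI was worth 1.02 CPM for spleen and 0.65 and 0.52 CPM for muscle libraries 1 and 2, and mapped reads per UMI had medians of 42.7, 19.6 and 35.6, so muscle library 1 had the fewest reads per molecule.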

Other observations

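The core element TATTTAT was counted in the 3′ UTR of 7149 of the tested genes, from the longest coding transcript of each. Of the 776 genes with 2 or more copies, 4.77% were called higher in muscle and 7.09% lower, beside 7.58% and 3.44% of all 7149. Their median log2 fold was -0.16, against 0.09 for the 4942 genes without a copy. The 92 genes with 4 or more copies, which are part of the 776, were at a median of -0.12. Of them 2.17% (2 genes) were higher and 3.26% (3 genes) lower, too few to read a trend with copies. The 3′ UTRs of genes with 2 or more copies were longer, with a median of 2988.5 bases against 1187 over all 7149. Among genes with 3′ UTRs of 2000 to 4000 bases, those with 2 or more copies had a median of -0.14, with 3.82% higher and 6.37% lower, and those without a copy a median of -0.02, with 6.40% higher and 3.20% lower. In the same range of lengths, the 33 genes with 4 or more copies had a median of -0.15, with 3.03% higher and 6.06% lower. These counts describe the libraries, genes are no replicates, and the resting-like share of spleen cells was not taken into account.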
